A study of Homo sapiens with 6 samples.

Results

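The data described here are the messenger RNA levels of 9 transcription factors of lung epithelium and endoderm, NKX2-1, FOXA1, FOXA2, FOXA3, GATA6, HNF4A, SOX9, SOX2 and KLF5, in A549 cells that overexpress TIPARP. The 9 genes were found by symbol, each as 1 of the 53826 gene entries of the deposited tables. The A549 line was derived from a human adenocarcinoma of the lung. A549-TIPARP cells carried a retroviral pMXs-TIPARP transgene, and A549-GFP cells, the controls, were transduced with pMXs-GFP in its place. TIPARP is a mono-ADP-ribosyltransferase that is induced through the aryl hydrocarbon receptor. Each line was stably transduced and was sequenced in 3 libraries, numbered by experiment, and values are given in the order of replicates 1, 2 and 3. The comparison asks which genes differ between A549-TIPARP and A549-GFP cells, and all members share the genetic background of this single cell line.

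The epithelium of the lung arises from the anterior endoderm, the germ layer that also gives rise to liver, stomach and intestine. FOXA1, FOXA2 and FOXA3 are forkhead proteins and GATA6 is a zinc finger protein, and these factors can open closed chromatin for others. NKX2-1 is a homeodomain protein that directs lung and thyroid identity, while HNF4A is a nuclear receptor of hepatic and gut epithelium that is low in the normal lung. SOX2 marks the proximal airway and SOX9 the distal tips of the developing lung, and KLF5 is a zinc finger factor of epithelial progenitors. In lung adenocarcinomas that have lost NKX2-1, gastric and hepatic genes are often expressed together with HNF4A.

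NKX2-1, which was not detected in either line, and HNF4A, which was expressed in both, were placed on the genome. In hg38, by GENCODE release 44, NKX2-1 occupies bases 36516392 to 36521149 of chromosome 14 (minus strand, 3 exons). HNF4A occupies bases 44355699 to 44432845 of chromosome 20 (plus strand, 10 exons). Each has 2 annotated start sites in RefSeq, and both promoters of each gene are shown because the deposited values are sums over a gene and cannot tell which start was used. Every sequence runs 5′ to 3′ on the strand of the gene, from 250 bases before to 50 bases after the start (RefSeq, GRCh38.p14). Capitals mark matches, on either strand, to short letter strings that DNA-binding proteins of the forkhead, GATA, HNF4, SOX, NKX2-1 and KLF kinds recognise.
HNF4A upstream promoter, chr20:44355449-44355748, plus strand: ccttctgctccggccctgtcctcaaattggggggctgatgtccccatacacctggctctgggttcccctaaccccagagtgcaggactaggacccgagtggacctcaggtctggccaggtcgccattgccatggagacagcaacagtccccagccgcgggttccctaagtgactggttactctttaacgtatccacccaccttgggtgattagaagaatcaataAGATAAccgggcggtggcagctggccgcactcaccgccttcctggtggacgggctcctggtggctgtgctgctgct
HNF4A downstream promoter, chr20:44400989-44401288, plus strand: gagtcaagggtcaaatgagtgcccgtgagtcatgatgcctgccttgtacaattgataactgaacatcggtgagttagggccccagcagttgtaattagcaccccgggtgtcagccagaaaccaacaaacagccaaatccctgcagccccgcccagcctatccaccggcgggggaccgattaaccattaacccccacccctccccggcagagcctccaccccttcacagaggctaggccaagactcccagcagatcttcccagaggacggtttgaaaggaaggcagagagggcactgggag
NKX2-1 upstream promoter, chr14:36520183-36520482, minus strand: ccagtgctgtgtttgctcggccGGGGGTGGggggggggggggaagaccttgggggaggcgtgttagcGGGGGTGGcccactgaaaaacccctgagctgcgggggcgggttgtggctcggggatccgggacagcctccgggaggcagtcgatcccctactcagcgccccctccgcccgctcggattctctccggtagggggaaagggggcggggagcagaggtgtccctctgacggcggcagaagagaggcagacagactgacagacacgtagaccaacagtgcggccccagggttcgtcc
NKX2-1 downstream promoter, chr14:36519507-36519806, minus strand: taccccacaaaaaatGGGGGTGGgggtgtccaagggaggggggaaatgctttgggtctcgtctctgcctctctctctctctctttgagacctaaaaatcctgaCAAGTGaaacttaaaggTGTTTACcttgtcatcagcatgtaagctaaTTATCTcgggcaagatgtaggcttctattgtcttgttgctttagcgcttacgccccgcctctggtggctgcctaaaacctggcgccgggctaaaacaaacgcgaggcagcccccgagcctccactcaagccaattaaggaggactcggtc

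The upstream HNF4A promoter held the GATA letters AGATAA, which occurred in 10.3% of 35116 promoters of this length. The downstream HNF4A promoter held none of the letters searched. The downstream NKX2-1 promoter held the forkhead letters TGTTTAC, found in 3.42% of all promoters, together with GATA, KLF and NKX2-1 letters. The upstream NKX2-1 promoter held only the KLF letters GGGNGTGG, at 2 places, and 17.2% of all promoters held these. None of the letter matches overlapped another. RefSeq promoters were matched for 7 of the 9 members, 10 promoters in all, and the HNF4 letters CAAAGTCCA were in none of them, against 0.384% of all promoters. The SOX letters ACAATG, in 10.8% of all promoters, were in 1 of the 10. The NKX2-1 letters CAAGTG, in 11.5% of all promoters, were in 3. A match is a description of the letters only.

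The labels and the libraries were checked first. TIPARP had 6.79, 11.4 and 3.68 TPM in the GFP line, and 131, 90.5 and 123 TPM in the TIPARP line. Transgene and endogenous TIPARP are not separated in these values. TPM, a count of transcripts scaled to a fixed total per library, gives a gene's part in all transcripts of a library after correction for transcript length. The difference was 3.90 on log2(TPM + 1) (standard error 0.34, limma adjusted p = 0.0125). Leaving out 1 library at a time kept the difference between 3.54 and 4.24, but the limma adjusted p was above 0.05 in 5 of these 6 fits (up to 0.192), as it was with no filter (0.0965) and with the replicate block (0.513). A549-GFP replicate 2 stood apart. Over genes it lay 0.621 from its line's mean on the log2 scale (root mean square), against 0.185 to 0.400 for the other 5 libraries, and it was the highest library for 52.0% of the 13181 analysed genes. All 8 epithelial markers were detected, with EPCAM from 126 to 221 TPM and KRT7 from 2024 to 2433 TPM, and KRT19 was the only one past 2-fold, with 4.57, 2.54 and 5.36 TPM in the GFP line and 19.2, 19.0 and 10.9 TPM in the TIPARP line (limma adjusted p = 0.283). Of 8 endothelial markers 7 were at the floor in all 6 libraries, as were 5 of 8 mesenchymal markers and 4 of 8 blood cell markers, among them PTPRC and CD3E. The summed TPM of these 3 lists was at most 15.1, 47.3 and 18.5 in any library, floor values included. The analysed genes of these lists were ESAM, with 2.43 to 8.10 TPM, ACTA2, with 13.1 to 38.8 TPM, COL1A1, with at most 2.56 TPM, CD14, with at most 5.63 TPM, and LYZ, with 3.14 to 7.25 TPM. In RNA from whole cultures, fewer cells that express a gene and less RNA per cell cannot be told apart.

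Of the 9 factors, 7 were detected in every library and 2 were not. NKX2-1 and SOX2 were listed at the floor of the tables, 1 TPM or less, in all 6 libraries, so that neither line gave a level for them. Among all entries, 72.8% were at the floor in all 6 libraries. The order of the other factors by geometric mean over the 6 libraries was KLF5 with 58.0 TPM, HNF4A with 45.2, FOXA2 with 41.0, SOX9 with 27.3, FOXA1 with 21.3, FOXA3 with 9.37 and GATA6 with 2.73 TPM. KLF5 held rank 2325 and GATA6 rank 11298 among the 13181 genes above 2 TPM in at least 1 library.

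**Figure D1:**
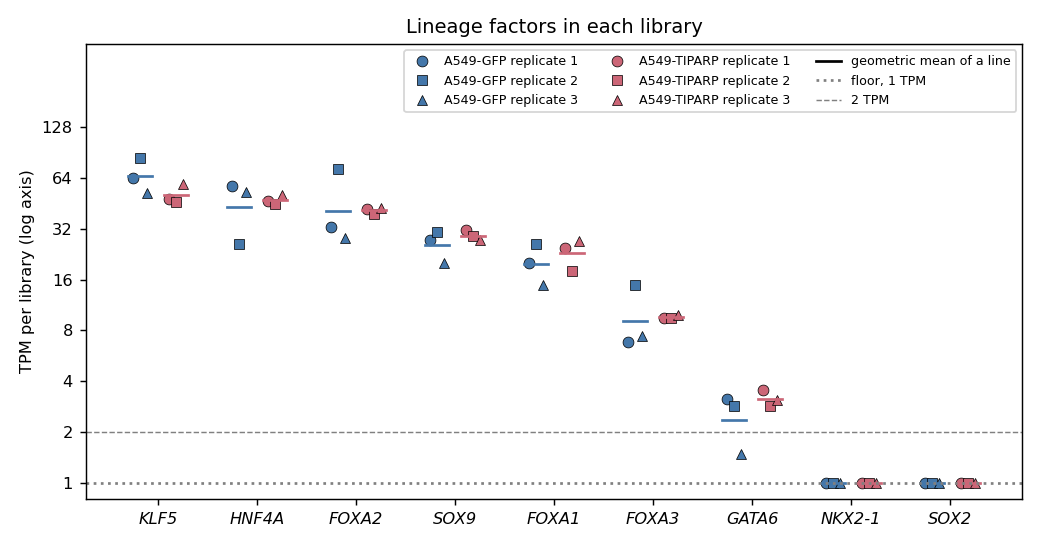
TPM of the 9 factors (horizontal axis) in each of 6 libraries, on a log axis; blue symbols are A549-GFP, red symbols A549-TIPARP, each symbol is 1 library and each bar the geometric mean of a line. KLF5 has the highest mean with 58.0 TPM, NKX2-1 and SOX2 lie at 1 TPM in all 6 libraries, and A549-GFP replicate 2 (blue squares) is highest for FOXA2 and lowest for HNF4A.

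The order was not sharp at the top. KLF5 exceeded HNF4A in 5 of 6 libraries, with a median ratio of 1.08, and the ranges of the pair overlapped. HNF4A exceeded FOXA2 in 5 of 6 libraries, and the exception was A549-GFP replicate 2. FOXA2 was above SOX9, SOX9 above FOXA1 and FOXA1 above FOXA3 in all 6 libraries, although the ranges over libraries overlapped in each pair. Only FOXA3 and GATA6 had ranges apart among neighbours in the order, with FOXA3 from 6.83 to 15.0 TPM and GATA6 from 1.49 to 3.53 TPM. These levels are on the TPM scale and can be compared between genes.

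None of the 7 detected factors passed a test of the difference between A549-TIPARP and A549-GFP cells. By limma with Benjamini-Hochberg adjustment 0 of 7 had an adjusted p-value under 0.05, against 0.0152% of the 13181 genes, and 0 of 7 had an unadjusted one, against 3.85% of genes, 2.97% higher and 0.88% lower in A549-TIPARP cells. None was past 2-fold in mean log2 TPM, a size that 1.53% of genes reached upward and 0.432% downward in A549-TIPARP cells. The libraries of the lines overlapped for all 7, while they separated for 8.91% of genes, 5.36% higher and 3.54% lower in A549-TIPARP cells. The median difference of the 7 factors was 0.14 in mean log2 TPM, and that of all analysed genes -0.07. An exact permutation test of 3 libraries against 3 cannot go below p = 0.1, so single factors could not pass 0.05 by that test.

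**Figure D2:**
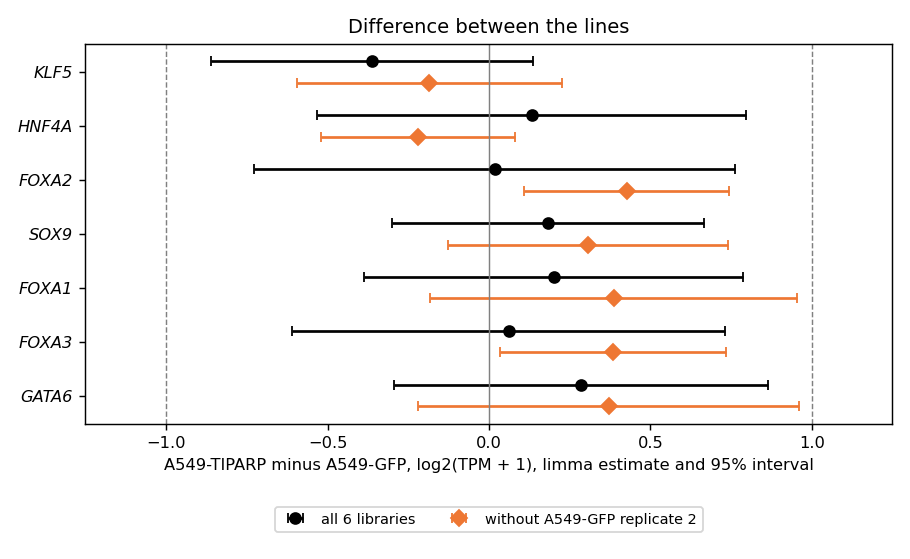
Difference of A549-TIPARP minus A549-GFP on log2(TPM + 1) for the 7 detected factors (limma estimate with its 95% interval), with all 6 libraries (black circles) and without A549-GFP replicate 2 (orange diamonds); dashed lines mark 2-fold. All 7 intervals from the 6 libraries include 0, and none reaches the dashed lines, which are 2-fold in TPM + 1. Adding 1 shrinks differences at low TPM, so 2-fold in TPM is not excluded for GATA6. Without A549-GFP replicate 2, FOXA2 moves from 0.02 to 0.43 and HNF4A from 0.13 to -0.22.

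Among the pioneer factors, FOXA1, a forkhead protein of branching lung epithelium (chromosome 14, 37589552 to 37596059, minus strand), had 20.1, 25.9 and 14.9 TPM in the GFP line. In the TIPARP line its level was 24.6, 18.1 and 27.1 TPM. The lines overlapped, and the highest value was in A549-TIPARP replicate 3 and the lowest in A549-GFP replicate 3. The difference on log2(TPM + 1) was 0.20 (standard error 0.26, 95% interval -0.39 to 0.79, limma adjusted p = 0.994). Leaving out 1 library at a time gave values from 0.0050, when A549-GFP replicate 3 was missing, to 0.39, when A549-GFP replicate 2 was.

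FOXA2, which is required for endoderm and for the alveolar epithelium (chromosome 20, 22580998 to 22585455, minus strand), had 32.7, 72.8 and 28.4 TPM in the GFP line. Its level in the TIPARP line was 42.0, 39.1 and 42.8 TPM. The A549-TIPARP libraries lay close together between a single high and a pair of low A549-GFP libraries. The difference on log2(TPM + 1) was 0.02 (95% interval -0.73 to 0.76, limma adjusted p = 0.998). FOXA3, the family member of liver and gut (chromosome 19, 45863989 to 45873797, plus strand), had the same layout at a lower level. Its level was 6.83, 15.0 and 7.44 TPM in the GFP line and 9.47, 9.50 and 9.90 TPM in the TIPARP line. Its difference was 0.06 on log2(TPM + 1) (95% interval -0.61 to 0.73, limma adjusted p = 0.998).

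Within the FOXA family, FOXA2 made up 54.8%, 64.0% and 55.9% of the summed FOXA TPM in the GFP line. In the TIPARP line its share was 55.3%, 58.6% and 53.6%. FOXA2 was thus the leading family member in every library, and its share overlapped between the lines.

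GATA6, a factor of early endoderm and of distal lung (chromosome 18, 22169589 to 22202528, plus strand, 7 exons), was close to the limit of 2 TPM. It had 3.15, 2.83 and 1.49 TPM in the GFP line and 3.53, 2.85 and 3.10 TPM in the TIPARP line. Only A549-GFP replicate 3 was under 2 TPM. The difference was 0.29 on log2(TPM + 1) (95% interval -0.29 to 0.87, limma adjusted p = 0.994), and without A549-GFP replicate 3 it was 0.06. Of the 6 GATA genes, GATA4 was the only other one above 2 TPM, with 2.16 to 3.31 TPM over the 6 libraries, and GATA1 and GATA5 were at the floor in all of them.

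HNF4A, the nuclear receptor of liver and gut, had 57.8, 26.1 and 53.0 TPM in the GFP line. Its level in the TIPARP line was 46.9, 44.7 and 50.6 TPM. Here A549-GFP replicate 2 was the lowest library, the reverse of its place for FOXA2 and FOXA3. The difference was 0.13 on log2(TPM + 1) (95% interval -0.53 to 0.80, limma adjusted p = 0.994), and without A549-GFP replicate 2 it turned to -0.22 (95% interval -0.52 to 0.08, limma adjusted p = 0.596). The ratio of HNF4A to FOXA2 was 1.77, 0.359 and 1.87 in the GFP line and stayed between 1.12 and 1.18 in the A549-TIPARP libraries. HNF4G, the close paralogue of HNF4A, had at most 3.43 TPM, and HNF4A was 7.60 times as high in A549-GFP replicate 2 and at least 35.3 times as high in the other 5 libraries, in 1 of which HNF4G was at the floor.

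SOX9 (chromosome 17, 72121020 to 72126416, plus strand) had 27.4, 30.6 and 19.9 TPM in the GFP line and 31.5, 28.9 and 27.4 TPM in the TIPARP line. The lines overlapped, with A549-GFP replicate 3 lowest. The difference was 0.18 on log2(TPM + 1) (standard error 0.21, 95% interval -0.30 to 0.67, limma adjusted p = 0.994). It was 0.011 when A549-GFP replicate 3 was left out, and 0.31 when A549-GFP replicate 2 was. SOX2 (chromosome 3, 181711925 to 181714436, plus strand, 1 exon) was at the floor in all 6 libraries. Of the 19 SOX genes listed, both of these included, 6 were above 2 TPM in at least 1 library, and 11 were at the floor in all 6. SOX12 had the highest level of the family, with 49.6 to 63.5 TPM, and was 1.68 to 2.49 times as high as SOX9. SOX17, a factor of definitive endoderm, had 17.2, 5.74 and 10.5 TPM in the GFP line and 17.9, 9.76 and 10.2 TPM in the TIPARP line. None of the 6 SOX genes was past 2-fold, a size that 1.53% of all genes reached upward and 0.432% downward. None had a limma adjusted p-value under 0.05, against 0.0152% of all genes. The lines did not overlap for 1 of the 6, which was higher in A549-TIPARP cells, against 5.36% of all genes.

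KLF5 (chromosome 13, 73054976 to 73077541, plus strand, 4 exons) had the only negative difference among the 7 factors. It had 64.5, 84.8 and 52.5 TPM in the GFP line and 48.4, 46.4 and 59.3 TPM in the TIPARP line. A549-GFP replicate 3 lay below A549-TIPARP replicate 3, so the lines overlapped. The difference was -0.36 on log2(TPM + 1) (standard error 0.22, 95% interval -0.86 to 0.14, limma adjusted p = 0.994), with p = 0.2 in an exact two-sided permutation test of log2 TPM. Without A549-GFP replicate 2 it was -0.18. Of the 17 KLF genes, 11 were analysed and 5 were at the floor in all 6 libraries. KLF13 and KLF10 followed KLF5 in level, with 31.7 to 63.5 TPM and 25.6 to 117 TPM, and no KLF gene was past 2-fold.

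A549-GFP replicate 2 moved the factors apart from each other. Against the mean of the other A549-GFP libraries it was higher by 1.26 for FOXA2 and 1.07 for FOXA3 in log2 TPM, and lower for HNF4A, at -1.08. For SOX9, GATA6, KLF5 and FOXA1 it was higher by 0.39 to 0.58, close to the median of 0.38 over all analysed genes, whose quartiles were -0.07 and 0.82. The keratins KRT8 and KRT18, the simple epithelial pair, were also low in that library. KRT8 had 3855 TPM there against 8947 and 9127 TPM in the other GFP libraries, and KRT18 had 4176 against 10108 and 11876 TPM. The part of these differences in the result for HNF4A was not tested.

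**Figure D3:**
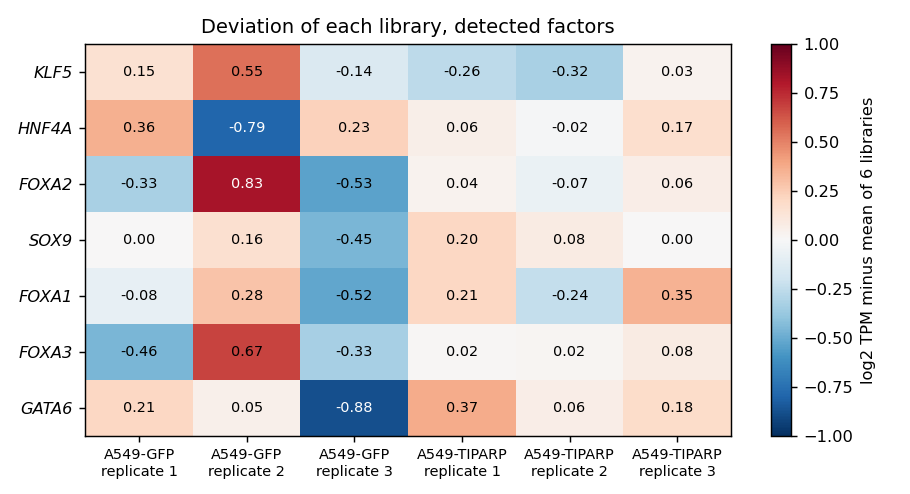
Log2 TPM of each detected factor (rows) in each library (columns) minus the factor's mean over the 6 libraries; red is above and blue below that mean. A549-GFP replicate 2 has the highest cell, 0.83 for FOXA2, and -0.79 for HNF4A, while A549-GFP replicate 3 is at -0.88 for GATA6 and the A549-TIPARP libraries lie between -0.32 and 0.37.

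Without A549-GFP replicate 2, FOXA2 and FOXA3 were higher in all 3 A549-TIPARP libraries than in the other 2 A549-GFP libraries, and HNF4A was lower. Such a separation was found for 21.2% of all genes in the higher direction and 6.42% in the lower direction, so that 3 of 7 factors stood beside 27.7% of genes. FOXA2 then differed by 0.43 (95% interval 0.11 to 0.75, limma adjusted p = 0.366) and FOXA3 by 0.39 (95% interval 0.04 to 0.74, limma adjusted p = 0.440) on log2(TPM + 1). No factor passed the adjusted threshold in this fit either.

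Of 15 antisense or neighbouring genes listed, 13 were in the tables, and 10 of these were at the floor in all 6 libraries, near the 72.8% of all entries that were, among them SFTA3 and NKX2-1-AS1 beside NKX2-1, SOX2-OT, which spans SOX2, and SOX9-AS1, GATA6-AS1 and HNF4A-AS1. NKX2-8, the homeobox gene next to NKX2-1, had 1.57 to 2.35 TPM in A549-GFP and 2.02 to 2.66 TPM in A549-TIPARP cells. MIPOL1, near FOXA1, had 1.34 to 3.38 and 1.59 to 2.00 TPM. Whether reads were counted by strand is not stated, so antisense partners are uncertain.

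Other transcription factors of lung and endoderm were compared in the same way. Of 45 listed, 28 were analysed and 14 were at the floor in all 6 libraries, among them TP63 of basal cells, FOXJ1 of ciliated cells and CDX1 and GATA5 of the gut. CEBPB had the highest level, with 175, 350 and 180 TPM in the GFP line and 126, 149 and 142 TPM in the TIPARP line. ELF3, an epithelial ETS factor, had 114 to 247 TPM and ID2, of the distal lung tip, 86.5 to 135 TPM over the 6 libraries. By limma 0 of the 28 passed an adjusted p of 0.05, against 0.0152% of all genes. The lines did not overlap for 2 higher and 3 lower factors of the 28, against 5.36% and 3.54% of all genes. Past 2-fold was only TFCP2L1, which was higher, against 1.53% of all genes upward and 0.432% downward. TFCP2L1, a factor of the grainyhead and CP2 family, had 1.42, 1.23 and 1.04 TPM in the GFP line. In the TIPARP line it had 2.61, 2.41 and 2.58 TPM, and the lines did not overlap. Its difference was 0.67 on log2(TPM + 1) (standard error 0.20, limma adjusted p = 0.856). The median difference of the 28 factors in mean log2 TPM was 0.0047.

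Of 23 products of the lung epithelium, 9 were analysed and 13 were at the floor in all 6 libraries, a smaller share than the 72.8% of all entries, among them the surfactant proteins SFTPA1, SFTPA2, SFTPB and SFTPC and the club cell proteins SCGB1A1 and SCGB3A2. Other alveolar products of the list were detected, among them the lipid transporter ABCA3, with 8.34 to 23.8 TPM, the protease NAPSA, with 1.03 to 4.43 TPM, and the surfactant protein SFTPD, with at most 4.77 TPM and at the floor in 1 library. SLPI, a secreted protease inhibitor, had the highest level with 166 to 373 TPM, before CAV1 and LPCAT1. By limma 0 of the 9 analysed products passed an adjusted p of 0.05, and 1 was past 2-fold higher, against 1.53% of all genes. MUC1, a membrane mucin, had 3.25, 4.77 and 3.03 TPM in the GFP line and 9.15, 5.19 and 16.5 TPM in the TIPARP line (limma adjusted p = 0.966). The lines did not overlap for MUC1 and for CAV1, the caveolin of alveolar type I cells, which had 44.5 to 62.5 TPM in A549-GFP and 69.5 to 92.1 TPM in A549-TIPARP cells, and 5.36% of all genes were separated in this direction.

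Of 30 liver and yolk sac products 18 were analysed and 10 were at the floor in all 6 libraries, among them AFP, APOA2 and APOB, and CPS1, the first enzyme of the urea cycle, APOH and VTN had the highest levels. CPS1 had 131, 218 and 87.1 TPM in the GFP line and 65.6, 56.8 and 91.2 TPM in the TIPARP line. Of 28 gastric, intestinal and mucin products 14 were analysed and 11 were at the floor in all 6 libraries, among them MUC2, TFF3 and FABP1. Of those analysed, AGR2, a disulfide isomerase of mucous cells, reached 804 to 1592 TPM, CEACAM6 501 to 778 TPM and MUC5B 91.8 to 1047 TPM. By limma 0 of these 32 genes had an adjusted p-value under 0.05.

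Past 2-fold higher in A549-TIPARP cells were SERPINA3, an acute phase protease inhibitor, and KRT20, a keratin of gastrointestinal epithelium. SERPINA3 had 1.87, 16.9 and 2.71 TPM in the GFP line and 14.1, 7.56 and 33.3 TPM in the TIPARP line, which overlapped. KRT20 was listed at the floor throughout the GFP line and reached 3.56, 3.20 and 1.81 TPM in the TIPARP line, so no fold is given. Past 2-fold lower were F2, which encodes prothrombin, and the mucous products MUC5AC, MUC13 and TFF1. These 2 higher and 4 lower genes of 32 stood beside 1.53% and 0.432% of all genes. TFF1 had 8.57, 80.1 and 8.98 TPM in the GFP line and 7.64, 4.98 and 6.74 TPM in the TIPARP line. MUC13 had 77.1, 134 and 62.0 TPM against 45.5, 34.4 and 49.6 TPM. For all 4 lower genes A549-GFP replicate 2 was the highest library, and without it none of them was past 2-fold.

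That library was the highest of the 6 for 11 of the 14 gut and mucin products and for 12 of the 18 liver products, against 52.0% of all genes, while it was the lowest for HNF4A. The median difference in mean log2 TPM was -0.41 for the gut and mucin products and -0.19 for the liver products. Without A549-GFP replicate 2 these medians were 0.0077 and 0.50, and that of all analysed genes was 0.05.

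**Figure D4:**
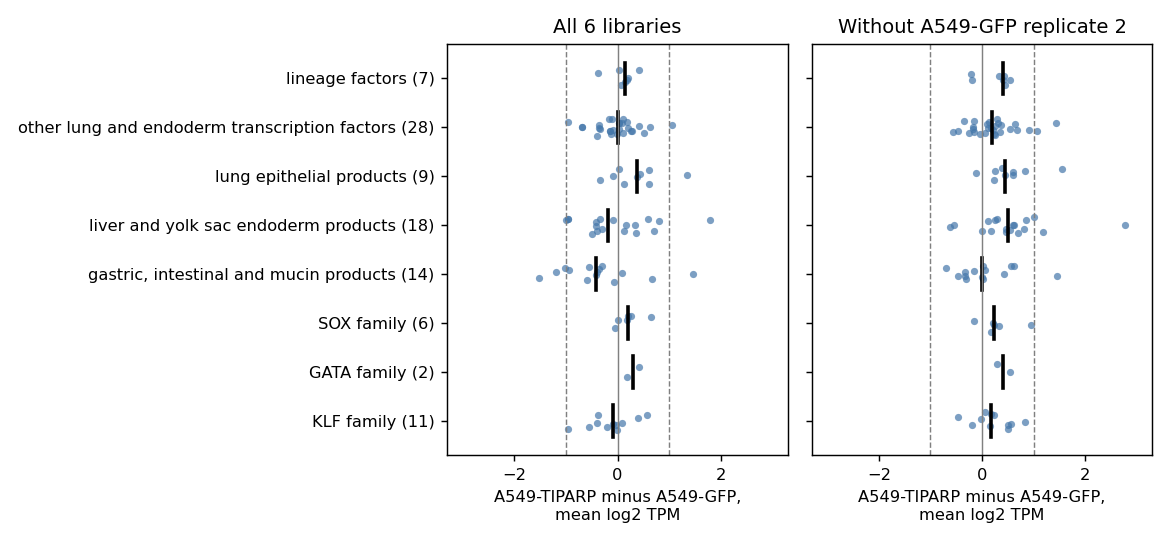
Difference of A549-TIPARP minus A549-GFP in mean log2 TPM for the analysed genes of each list (number in parentheses), with all 6 libraries (left) and without A549-GFP replicate 2 (right); points are genes, black bars are medians and dashed lines mark 2-fold. The median of the gut and mucin products moves from -0.41 to 0.0077, that of the liver products from -0.19 to 0.50 and that of the lineage factors from 0.14 to 0.41.

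The patterns over the 6 libraries were compared within the 103 analysed genes of all lists, as a description in which the points share libraries and A549-GFP replicate 2 weighs heavily. The gene most like KLF5 on log2(TPM + 1) was CPS1 (Pearson r = 0.987), and the next was AGR2 (r = 0.979). For HNF4A these were KRT18 (r = 0.929) and KRT8 (r = 0.900), and without A549-GFP replicate 2 the values were 0.05 and -0.0052. FOXA2 was most like KLF7 (r = 0.981) and CEACAM5 (r = 0.977), FOXA3 was most like ELF3 (r = 0.978) and FOXA2 (r = 0.968), and FOXA1 was most like SOX13 (r = 0.922) and CEBPA (r = 0.918). SOX9 was most like NFIB (r = 0.992) and LPCAT1 (r = 0.958), and GATA6 was most like GATA4 (r = 0.982) and LPCAT1 (r = 0.923). For factors other than HNF4A the values without A549-GFP replicate 2 ran from 0.883 to 0.998. The partners were chosen for high r on all 6 libraries, so these values are no independent check.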

How the data were processed

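RNA of 3 A549-GFP and 3 A549-TIPARP libraries was sequenced as paired ends on an Illumina NovaSeq instrument from stranded messenger RNA libraries. With Strand NGS, under its default settings, the authors mapped reads onto hg38 transcripts and deposited 1 table per library with log2 TPM per gene. The software version, the annotation release and the use of strand are not given in the sources used here. The lowest deposited log2 value is 0, and TPM above that floor total 998332 to 998442 in each library, so TPM under 1 had been set to 1. The tables hold no counts, so the depth is unknown and no counting error was computed.

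Groups and replicate numbers were taken from the sample titles. Genes above 2 TPM in at least 1 of 6 libraries were analysed, 13181 of 53826 entries. Fold changes are differences of mean deposited log2 values. The test was limma 3.58.1 (R 4.3.3) with a variance trend on log2(TPM + 1), without a block, with Benjamini-Hochberg adjustment over all 13181 genes. Adding 1 shrinks differences at low TPM. The fit was tested on simulated data with independent noise, in which no library stood apart as A549-GFP replicate 2 did here. No source says that the libraries of a line came from separate cultures, so p-values measure the spread between libraries, which may be technical.

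The factors and gene lists were chosen with earlier results of these data known. Named in the text are all factors, list genes past 2-fold or past the limma threshold, the 3 analysed genes of highest level in a list and, for each factor, the 2 list genes of highest correlation. Genes named outside this rule (HNF4G, EPCAM, ABCA3, NAPSA, SFTPD and genes at the floor) were chosen after their values were seen. Positions are from GENCODE 44 and promoters from RefSeq on GRCh38.p14, the hg38 build. Protein sequences were not used here.

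Alternatives were a pseudocount of 0.1 for the fit or 1 for the fold, a filter of TPM above 2 that 3 libraries had to pass, all genes unfiltered, median-ratio scaling, limma without a trend, the replicate block, arithmetic means and each library left out in turn. Alternatives for counts were not run.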

Additional observations from a re-analysis of the deposited data

How the results depend on the processing

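No factor passed the limma threshold or 2-fold under any alternative run. The separation of the lines changed. After median-ratio scaling 1 factor, SOX9, was higher in all A549-TIPARP libraries. With each library left out, 0 to 2 factors were higher (GATA6 without A549-GFP replicate 1, FOXA2 and FOXA3 without A549-GFP replicate 2) and 0 to 1 lower (HNF4A without A549-GFP replicate 2, KLF5 without A549-GFP replicate 3 or A549-TIPARP replicate 3). The difference on log2(TPM + 1) then ran from -0.22 to 0.34 for HNF4A, from -0.24 to 0.43 for FOXA2 and from -0.13 to 0.39 for FOXA3. From arithmetic means of TPM the log2 ratio was -0.11 for FOXA2 and -0.018 for FOXA3. KLF5 stayed negative and SOX9, FOXA1 and GATA6 positive in every alternative run, but without A549-GFP replicate 3 SOX9 fell to 0.011, FOXA1 to 0.0050 and GATA6 to 0.06. Of the 96 analysed list genes other than the factors, 5 were past 2-fold higher and 4 lower, against 1.53% and 0.432% of all genes. These numbers were 3 and 2 with a pseudocount of 1, 4 to 9 and 0 to 9 with each library left out, and the lower ones were 2 after median-ratio scaling and 8 from arithmetic means. Without A549-GFP replicate 2, 9 were higher and 0 lower, while over all 13181 genes the numbers went from 202 higher and 57 lower to 383 and 39. TIPARP differed by 3.54 to 4.24 with each library left out, and its limma adjusted p-value was then 0.0331 to 0.192. It differed by 3.90 without a filter (adjusted p = 0.0965) and by 3.90 with the replicate block (adjusted p = 0.513), and over all alternatives the adjusted p ran from 0.00984 to 0.513. The deviations of same-numbered libraries correlated with r = 0.415, -0.486 and -0.358 across genes. These values cannot tell whether same-numbered libraries were paired, because deviations within a line depend on each other and A549-GFP replicate 2 weighs heavily. With the replicate block the limma adjusted p-values of the 7 factors were all 0.999. The depth of the libraries is unknown, so no limit can be given for NKX2-1 and SOX2 below 1 TPM.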
